A study of Mus musculus with 72 samples.

Results

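The collagen genes of skeletal muscle were described in TA (tibialis anterior, a fast muscle) and SOL (soleus, a slow muscle) of the same mice. Members were the named probe sets whose symbol has the form Col, a chain number, a and a second number, with 1 probe set for each symbol. The rule found 44 genes among 20239 named genes, and no symbol had more than 1 probe set. They comprised 11 fibrillar collagens, 9 fibril-associated collagens with interrupted triple helices (FACIT), 9 basement membrane collagens, 7 beaded filament collagens, 4 network-forming or other collagens and 4 transmembrane collagens. No filter on low values was applied, so all 44 were tested. In 32 of them the mean over 72 arrays was above the median probe set level of 6.75 log2 units, including 11 of 11 fibrillar members, whereas 12 lay below it.

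Muscles came from 36 male C57BL/6 mice aged 5 months. The 18 mKO mice carried floxed Bmal1 and a Cre recombinase driven by the Mlc1f promoter, which belongs to a fast myosin light chain gene, and the 18 Ctrl mice were littermates without Cre. Cre itself therefore cannot be told apart from loss of Bmal1, and the Cre acts in muscle fibres, whereas most collagen RNA of muscle is known to come from other cells. Both muscles of each mouse were sampled at 1 of 6 Zeitgeber times (ZT), spaced by 4 h from ZT0, when lights came on, to ZT20, with lights off at ZT12, with 3 mice for each genotype and time, and each muscle was hybridised to its own array.

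Collagens are triple helices of 3 polypeptide chains. Types I, III and V form the fibrils of tendon and of the connective tissue sheaths of muscle, FACIT collagens decorate those fibrils, type IV forms the sheet of the basement membrane around every fibre and capillary, and type VI forms beaded filaments that link that sheet to the interstitium. Interstitial fibroblasts, tendon cells and endothelial cells are the main sources, and loss of type VI chains causes muscular dystrophy in humans. Bmal1 encodes the clock factor that binds E-box DNA together with CLOCK.

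The median SD among 3 replicates was 0.12 log2 units for the members and 0.119 for all named genes. The slow fibre marker list had a median level of 7.19 in TA mKO against 13.1 in SOL mKO, and 7.14 in TA Ctrl against 13.2 in SOL Ctrl, so the labelled muscles stood far apart. Arntl, the gene symbol of Bmal1, averaged 8.44 at ZT0 and 7.33 at ZT12 in SOL mKO, against 9.11 and 6.56 in SOL Ctrl. Where its probes lie with respect to the floxed exons is not stated, and these values are no check of the deletion. The TA array of the Ctrl mouse labelled ZT0 replicate A stood apart in 12 liver markers. Their median was 4.93 log2 units above the mean of replicates B and C. For the 44 collagen genes of that array the median was 0.25 log2 units below that mean (from -0.68 to 0.16 over genes). The animal numbers fall into series named BM3 (23 mice), BM2* (7) and BM2 (6), whose meaning is not given. They overlap with time and genotype, since all mice of ZT0 and ZT4 belong to BM3, all of ZT12 to BM2 or BM2*, and at ZT20 the mKO mice to BM2 and the Ctrl mice to BM3.

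The question of the muscle comparison was which collagen genes differ between a fast and a slow muscle of the same mouse, and whether both genotypes show the difference. In mKO mice, 22 of 44 members passed an adjusted p of 0.05 in limma, 17 higher and 5 lower in TA, where 48.2% of all named genes passed (27.8% higher and 20.4% lower). In Ctrl mice, 18 of 44 members passed, 10 higher and 8 lower in TA, where 42.9% of all genes passed (22.9% higher and 20.0% lower). The members' shares, 50.0% and 40.9%, were thus near those of all genes. Their median difference was 0.10 in mKO and 0.05 in Ctrl, against 0.04 and 0.02 over all genes. Without the Ctrl mouse of ZT0 replicate A the counts were 25 in mKO and 20 in Ctrl, where 49.1% and 43.1% of all genes passed. Calls in both genotypes covered 14 members, which is 63.6% of the mKO list and 77.8% of the Ctrl list, and all 14 had the same direction in both. The same overlap over all genes was not counted, so it is not shown to be particular to the collagens. The plot of muscle differences gives every member.

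**Figure D1:**
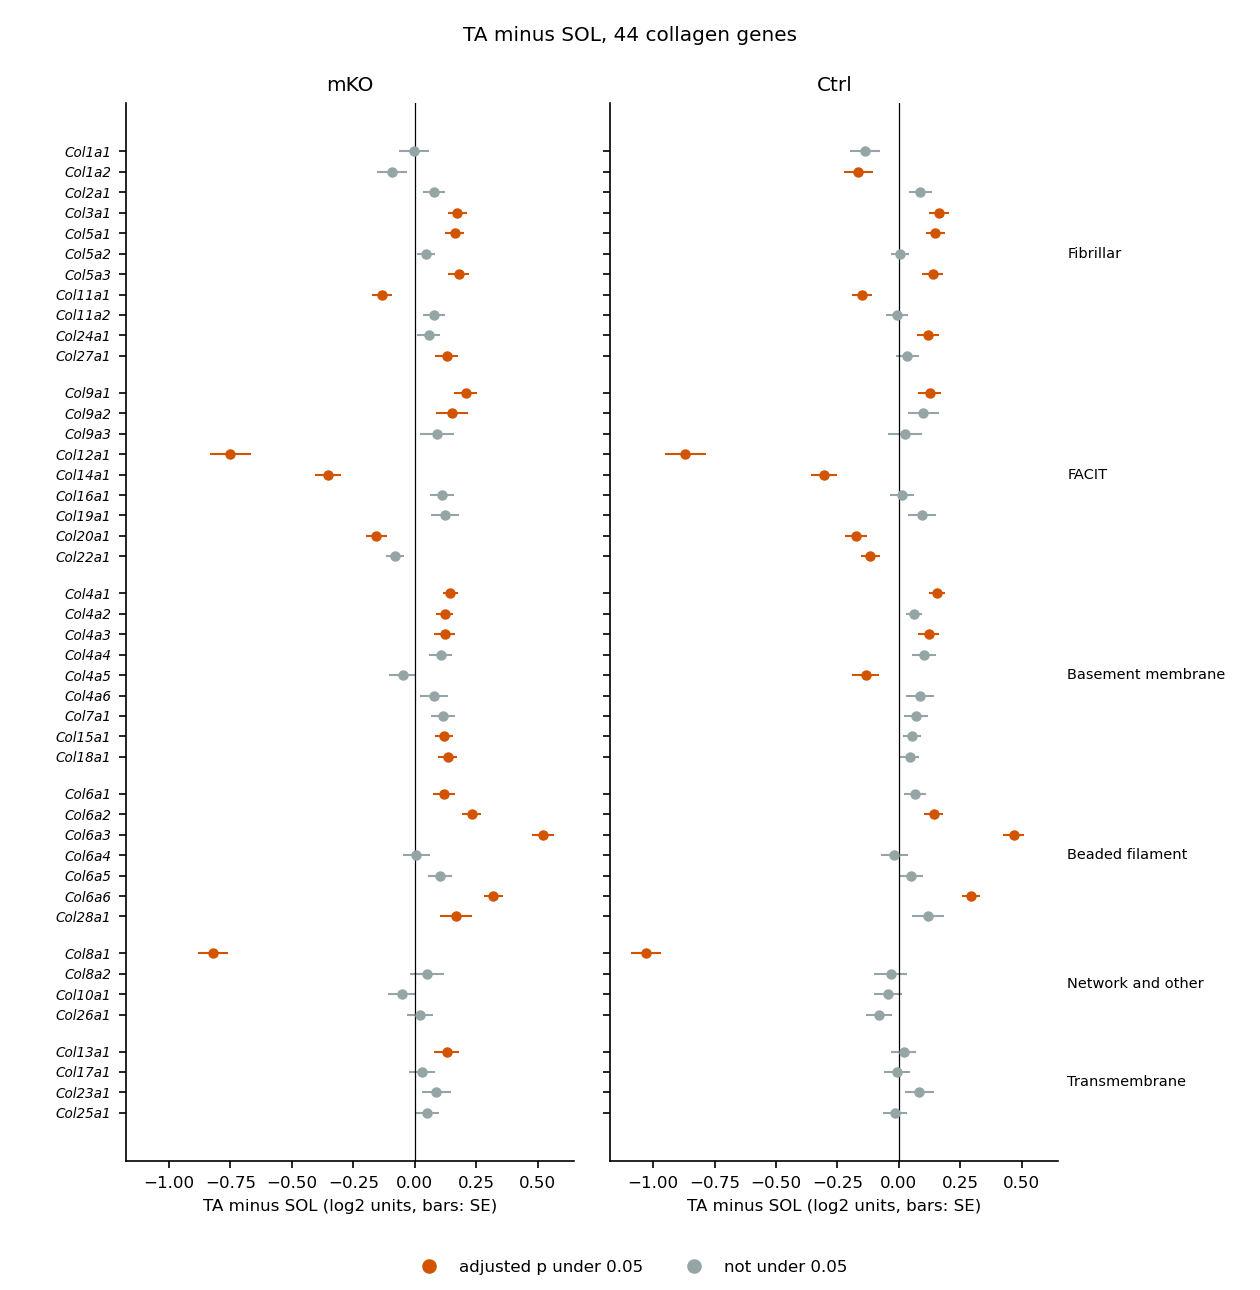
TA minus SOL within animals for each of the 44 collagen genes, in log2 units, with mKO mice on the left and Ctrl mice on the right. Points are estimates, bars are SEs and orange marks an adjusted p under 0.05 (22 genes in mKO, 18 in Ctrl). Col8a1, Col12a1 and Col14a1 lie left of 0 and Col6a3 and Col6a6 right of 0 in both panels.

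The largest difference among the members was that of Col8a1, a short-chain network collagen known from blood vessel walls and the corneal endothelial membrane. Its signal (lowest, median, highest) was 6.64, 7.12 and 7.68 in TA mKO, against 7.59, 7.94 and 8.47 in SOL mKO. In TA Ctrl it was 6.47, 6.96 and 7.35, against 7.64, 8.03 and 8.48 in SOL Ctrl. Every Ctrl SOL array lay above every Ctrl TA array, and among mKO arrays the muscles overlapped slightly. TA was lower than SOL in all 36 mice, since 0 of 18 mKO and 0 of 18 Ctrl differences were above 0. The fitted difference was -0.82 ± 0.06 (SE) in mKO, a 1.77-fold lower level in TA (limma adjusted p = 9.78e-13), and -1.03 ± 0.06 in Ctrl, a 2.04-fold lower level (adjusted p = 4.29e-15). Means were 7.15 ± 0.23 in TA mKO against 7.97 ± 0.21 in SOL mKO, and 6.97 ± 0.26 in TA Ctrl against 8.01 ± 0.24 in SOL Ctrl (SD, n = 18 each). The other members of its class, Col8a2, Col10a1 and Col26a1, were not called in either genotype.

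Col12a1 and Col14a1, which coat fibrils of tendon and fascia, were lower in TA. Col12a1, a FACIT of tendon and fascia that links fibrils to other matrix proteins, had 6.79, 7.22 and 8.10 in TA mKO (lowest, median, highest), against 7.48, 7.97 and 8.44 in SOL mKO. In TA Ctrl it had 6.86, 7.35 and 8.01, against 7.71, 8.15 and 8.86 in SOL Ctrl. The muscles overlapped in both genotypes, but only 1 of 18 mKO mice and 1 of 18 Ctrl mice had a higher signal in TA. The difference was -0.75 ± 0.08 in mKO (1.68-fold lower in TA, adjusted p = 5.54e-09) and -0.87 ± 0.08 in Ctrl (1.83-fold lower, adjusted p = 2.76e-10). Col14a1, its close relative on collagen I fibrils, averaged 7.35 ± 0.16 in TA mKO against 7.70 ± 0.19 in SOL mKO, and 7.48 ± 0.12 in TA Ctrl against 7.78 ± 0.17 in SOL Ctrl (SD, n = 18 each). Like Col8a1 it was lower in TA of every mouse, by 0.35 ± 0.05 in mKO (adjusted p = 1.00e-06) and 0.31 ± 0.05 in Ctrl (adjusted p = 1.10e-05). Of the remaining FACIT members, Col20a1 was lower in TA in both genotypes (-0.16 in mKO and -0.17 in Ctrl), and Col22a1, a collagen of the muscle-tendon junction, was lower in Ctrl (-0.12 ± 0.04, adjusted p = 0.0119) and had -0.08 ± 0.04 in mKO (adjusted p = 0.0755). Col9a1, a chain of the FACIT that coats cartilage fibrils and here a dim member, was higher in TA by 0.21 in mKO and 0.13 in Ctrl.

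The beaded filament collagens that were called stood the other way. Col6a3, the large chain that completes the type VI trimer of muscle, had 8.03, 8.32 and 8.64 in TA mKO (lowest, median, highest), against 7.43, 7.76 and 8.19 in SOL mKO. In TA Ctrl it had 8.09, 8.32 and 8.64, against 7.57, 7.83 and 8.23 in SOL Ctrl. The ranges of the muscles overlapped, and TA was the higher muscle in 18 of 18 mKO and 18 of 18 Ctrl mice. The difference was 0.52 ± 0.04 in mKO (1.44-fold, adjusted p = 1.88e-11) and 0.47 ± 0.04 in Ctrl (1.38-fold, adjusted p = 2.36e-10). Col6a6, an alternative to the third chain, had 7.10, 7.34 and 7.71 in TA mKO, against 6.77, 7.02 and 7.18 in SOL mKO, and 7.15, 7.31 and 7.45 in TA Ctrl, against 6.83, 7.04 and 7.13 in SOL Ctrl. In Ctrl its muscles did not overlap, and it too was higher in TA of all mice, by 0.32 ± 0.04 in mKO (adjusted p = 1.34e-08) and 0.29 ± 0.04 in Ctrl (adjusted p = 6.92e-08). Col6a2, a short chain of the trimer, was higher in TA by 0.23 ± 0.04 in mKO (adjusted p = 6.62e-06) and 0.14 ± 0.04 in Ctrl (adjusted p = 0.00274). Col6a1, the other short chain, passed in mKO only (0.12 ± 0.04, adjusted p = 0.025, against 0.07 ± 0.04 and adjusted p = 0.239 in Ctrl), a call that ended with the identification series as a block (adjusted p = 0.05004). In all, 5 of 7 beaded members passed in mKO (71.4%) and 3 of 7 in Ctrl (42.9%), all higher in TA. Of all genes 48.2% passed in mKO (27.8% higher) and 42.9% in Ctrl (22.9% higher).

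**Figure D2:**
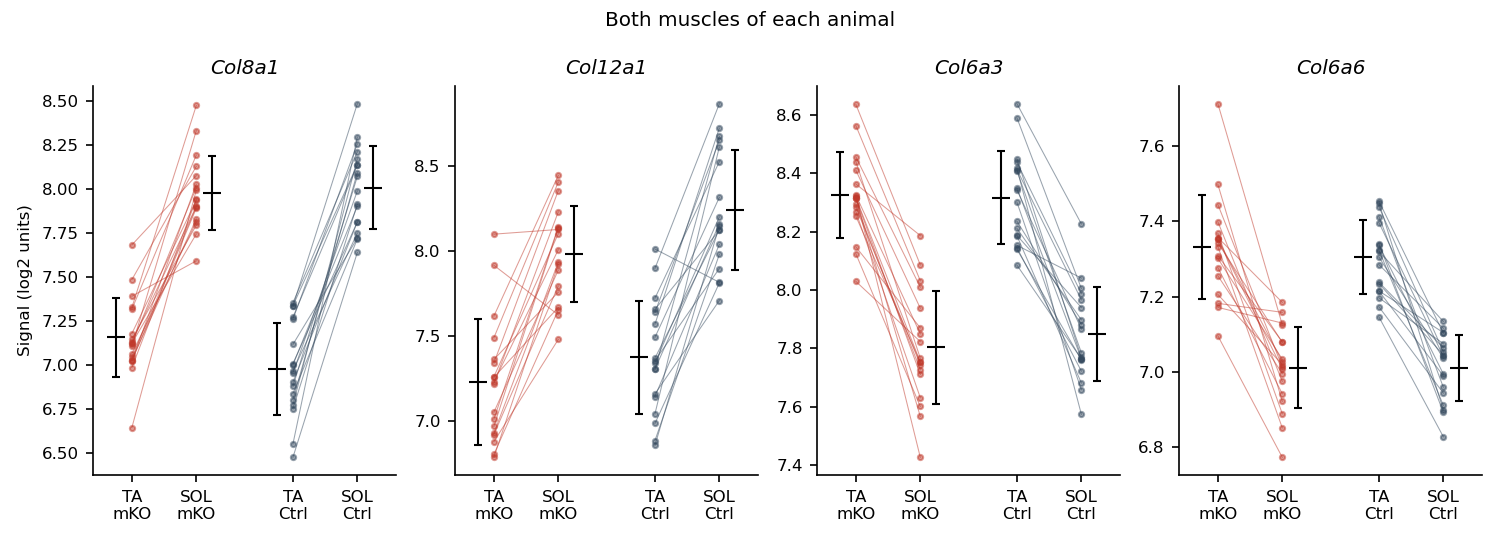
Signal (log2 units) of Col8a1, Col12a1, Col6a3 and Col6a6 in TA and SOL of mKO mice (red) and Ctrl mice (blue). Points are arrays, thin lines join both muscles of 1 mouse, and black marks give the mean ± SD of 18 mice. Lines run upward from TA to SOL for Col8a1 in all 36 mice and downward for Col6a3 and Col6a6 in all 36.

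Among fibrillar collagens the muscle difference was split. Col3a1, the fine fibril collagen of the interstitium, averaged 8.44 ± 0.21 in TA mKO against 8.26 ± 0.18 in SOL mKO, and 8.39 ± 0.22 in TA Ctrl against 8.23 ± 0.19 in SOL Ctrl (SD, n = 18 each). It was higher in TA in 17 of 18 mKO mice (0.17 ± 0.04, adjusted p = 0.000446) and in 15 of 18 Ctrl mice (0.16 ± 0.04, adjusted p = 0.0009). Col5a1 and Col5a3, chains of the type V collagen that sets fibril diameter, were also higher in TA, by 0.16 and 0.18 in mKO and by 0.15 and 0.14 in Ctrl. The chains of type I, the main fibril protein of tendon, had no positive estimate. Col1a1 differed by -0.00 ± 0.06 in mKO (adjusted p = 0.987) and by -0.14 ± 0.06 in Ctrl (adjusted p = 0.0699). In Ctrl it passed without the mouse of ZT0 B, ZT12 B, ZT16 B or ZT20 C (adjusted p = 0.00753 to 0.0472) and among probe sets above the median level (adjusted p = 0.0404). Col1a2 had -0.09 ± 0.06 in mKO (adjusted p = 0.208) and was lower in TA in Ctrl (-0.16 ± 0.06, adjusted p = 0.0259), a call that ended without the Ctrl mouse of ZT4 A, ZT12 A, ZT12 C, ZT16 C or ZT20 A (adjusted p = 0.0528 to 0.084). Col11a1, a fibril core chain best known from cartilage, was lower in TA in both genotypes (-0.13 and -0.15).

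Basement membrane members that differed were mostly higher in TA, with 5 of 9 higher and none lower in mKO, and 2 of 9 higher and 1 lower in Ctrl. The shares called were 55.6% in mKO and 33.3% in Ctrl, against 48.2% and 42.9% of all genes. Col4a1, a chain of the type IV network of every basement membrane, averaged 8.12 ± 0.15 in TA mKO against 7.98 ± 0.13 in SOL mKO, and 8.00 ± 0.17 in TA Ctrl against 7.85 ± 0.16 in SOL Ctrl (SD, n = 18 each). It was higher in TA in 14 of 18 mKO mice (0.14 ± 0.03, adjusted p = 0.000316) and 17 of 18 Ctrl mice (0.15 ± 0.03, adjusted p = 0.00016). Col4a2, its partner chain, passed in mKO (0.12 ± 0.03, adjusted p = 0.00354) and had 0.06 ± 0.03 in Ctrl (adjusted p = 0.157). Col18a1 and Col15a1, whose proteins bridge basement membranes and interstitium, passed in mKO only, with 0.13 (adjusted p = 0.00489) and 0.12 (adjusted p = 0.00727), against 0.04 and 0.05 in Ctrl. A call in 1 genotype alone does not show that the genotypes differ. The test of that difference, the interaction of muscle and genotype, called 0 of 44 members in limma (2.71% of all genes), with 1 member at an unadjusted p under 0.05 (2372 of 20239 genes). That member was Col8a1, whose TA minus SOL difference was 0.21 ± 0.09 less negative in mKO (adjusted p = 0.29).

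Some markers of other cell types differed between the muscles as well, where 48.2% of all genes passed in mKO and 42.9% in Ctrl. All 7 tendon markers were lower in TA in both genotypes, with medians of -0.61 in mKO and -0.76 in Ctrl. Their mean level ran from 7.15 to 7.92 in TA mKO against 7.98 to 8.76 in SOL mKO, and from 7.25 to 8.01 in TA Ctrl against 8.22 to 9.07 in SOL Ctrl. Of 6 fibroblast markers 3 were lower in TA (Pi16, Cd34 and Mfap5) and none higher in each genotype. That share of 50.0% compares with 20.4% of all genes lower in mKO and 20.0% in Ctrl, and the list medians were -0.34 and -0.26. Of 7 endothelial markers 5 were lower and 1 higher (Cldn5), and all 6 adipocyte markers were lower. Of 7 bone and cartilage markers 4 were higher and 1 lower in TA in each genotype. Of 6 macrophage markers 2 were lower in mKO and 1 in Ctrl. Their part in the collagen differences was not tested, and in whole muscle fewer cells of a type and less RNA per cell cannot be told apart.

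The comparison of genotypes asked whether loss of Bmal1 in muscle fibres goes with a different collagen level. In TA, 1 of 44 members passed, where 14.8% of all named genes did. An unadjusted p under 0.05 was reached by 10 of 44 members, against 5435 of 20239 genes. With array weights 12 of 44 passed, where 26.6% of all genes did. Of the 32 members above the median level 5 passed, where 30.5% of the genes above it did. With the replicate block 4 of 44 passed, where 15.6% of all genes did. Up to 6 members passed with 1 mouse left out, where 2672 to 3523 of 20239 genes did. The median difference of the members was 0.05, against 0.02 over all genes, and 37 of 44 estimates were above 0, against 11948 of 20239 over all genes. In SOL, 0 of 44 passed in limma, where 7.1% of all genes did, and the median was 0.02, against 0.00 over all genes. There 5 of 44 members had an unadjusted p under 0.05, against 3354 of 20239 genes. Estimates ran from -0.15 to 0.18 in TA and from -0.26 to 0.12 in SOL, so no member differed by as much between genotypes as Col8a1 did between muscles.

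**Figure D3:**
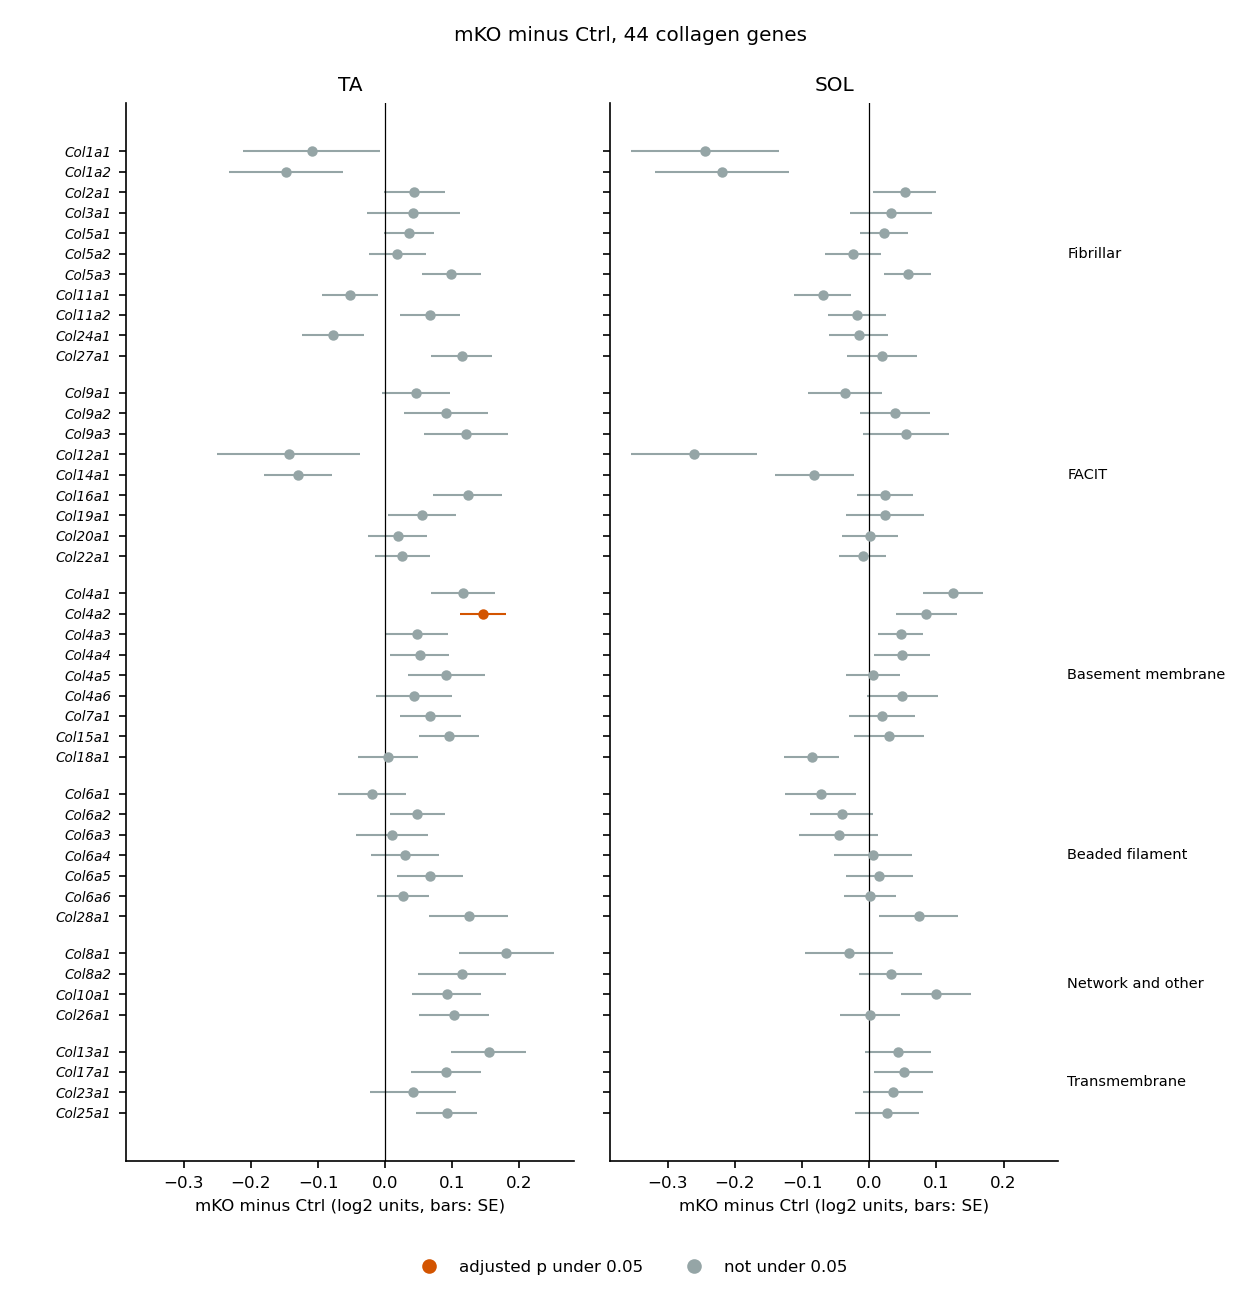
mKO minus Ctrl over the 6 times for each of the 44 collagen genes, in log2 units, with TA on the left and SOL on the right. Points are estimates, bars are SEs and orange marks an adjusted p under 0.05, which Col4a2 in TA has and no member in SOL.

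The member that passed was Col4a2 in TA. Its signal (lowest, median, highest) was 8.09, 8.23 and 8.50 in TA mKO, against 7.91, 8.07 and 8.29 in TA Ctrl, and the groups overlapped. Means were 8.23 ± 0.11 in TA mKO and 8.08 ± 0.12 in TA Ctrl (SD, n = 18 each), a difference of 0.15 ± 0.03 or 1.11-fold (limma adjusted p = 0.00237). The mKO mean was the higher at 6 of 6 times. The gap was widest at ZT0, where mKO mice had 8.33, 8.24 and 8.50, against 7.98, 8.06 and 8.11 in Ctrl mice, and narrowest at ZT4, with 8.27, 8.26 and 8.34 in mKO mice, against 8.20, 8.29 and 8.29 in Ctrl mice. At ZT0 the genotypes did not overlap, and at ZT4 they did. The call remained without the Ctrl mouse of ZT0 replicate A (0.14, adjusted p = 0.005) and without any other single mouse (0.13 to 0.16), but within BM3 mice the difference was 0.14 with an adjusted p of 0.063, and within BM2 and BM2* mice 0.19 with an adjusted p of 0.535. In SOL, Col4a2 had 7.74, 8.12 and 8.35 in mKO, against 7.83, 8.05 and 8.22 in Ctrl, and the difference of 0.08 ± 0.05 was not called (adjusted p = 0.368).

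Col4a1 had the same sign in both muscles without passing. Its signal was 7.91, 8.11 and 8.49 in TA mKO, against 7.75, 7.99 and 8.31 in TA Ctrl, and 7.70, 8.01 and 8.15 in SOL mKO, against 7.51, 7.87 and 8.10 in SOL Ctrl. The groups overlapped widely, and the differences were 0.12 ± 0.05 in TA (adjusted p = 0.102) and 0.12 ± 0.04 in SOL (adjusted p = 0.0963). With the identification series as a block both passed, at 0.14 in TA (adjusted p = 0.0187) and 0.15 in SOL (adjusted p = 0.0186). The genes of these chains lie head to head on chromosome 8, with Col4a1 starting on the minus strand at position 11312826 and Col4a2 on the plus strand at position 11312805 (RefSeq, GRCm38.p6), so that their annotated starts overlap by 22 bases. The deviations of Col4a1 and Col4a2 from their group means correlated across 36 arrays with r = 0.708 in TA and 0.766 in SOL, as a description, since values of 1 array share its RNA and normalisation.

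Col1a1, Col1a2, Col12a1 and Col14a1 had negative estimates in both muscles without passing. Col1a1 (lowest, median, highest) had 8.63, 9.06 and 9.80 in TA mKO, against 8.67, 9.25 and 10.1 in TA Ctrl, and 8.73, 9.07 and 9.75 in SOL mKO, against 8.80, 9.28 and 10.5 in SOL Ctrl. The differences were -0.11 in TA and -0.25 ± 0.11 in SOL (adjusted p = 0.244), with overlapping groups. Col1a2 had -0.15 in TA and -0.22 in SOL, Col12a1 -0.26 ± 0.09 in SOL (adjusted p = 0.101), and Col14a1 -0.13 ± 0.05 in TA (adjusted p = 0.089). Within BM2 and BM2* mice the type I differences turned positive in both muscles (0.02 to 0.27), so their sign is not settled. Only mice of ZT8 and ZT12 inform that fit, since these series hold both genotypes at no other time. Col3a1 had 0.04 in TA (adjusted p = 0.745) and 0.03 in SOL (adjusted p = 0.884). Of the members with positive estimates in TA, Col8a1 had 0.18 ± 0.07 (adjusted p = 0.0903), Col13a1, a transmembrane collagen of the neuromuscular junction, 0.15 ± 0.06 (adjusted p = 0.0619), and Col27a1 0.11 ± 0.05 (adjusted p = 0.095).

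At single times, with 3 mice for each genotype, 0 of 44 members passed at any time in either muscle. From ZT0 to ZT20, the shares of all genes that passed were 1.63%, 1.67%, 2.03%, 2.52%, 2.02% and 1.99% in TA, and 0.553%, 0.44%, 0.86%, 0.751%, 0.944% and 1.04% in SOL. Over the 6 times 5 of 264 member tests in TA and 5 of 264 in SOL had an unadjusted p under 0.05, and the smallest adjusted p was 0.0537 (Col4a2 in TA at ZT0). The share of all genes with such an unadjusted p at single times was not counted, so these counts have no comparison.

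Genes that work with the collagens were called between genotypes in both muscles. The share of a list that passed ran from 13.3% (turnover) to 40.0% (TGF-beta signalling) in TA, against 14.8% of all genes, and from 0.0% to 26.7% in SOL, against 7.1% of all genes. Among 10 basement membrane partners, 3 were higher in TA of mKO mice, among them Lamb2 (0.20, adjusted p = 6.54e-05), a laminin chain, and Hspg2 (0.19, adjusted p = 0.000928), which encodes perlecan, while 0 of 10 passed in SOL (2 at an unadjusted p under 0.05). Among 14 fibril partners 3 fell in TA and 1 in SOL: Fn1 (-0.42, adjusted p = 1.04e-05), encoding fibronectin, Ogn (-0.40, adjusted p = 0.000136), encoding a small leucine-rich proteoglycan, were among those in TA, and Fmod, encoding fibromodulin, was that in SOL (-0.30, adjusted p = 0.0241). Among 17 genes of collagen folding and modification 5 fell in TA, led by Colgalt1 (-0.18, adjusted p = 0.00178), a galactosyltransferase of collagen lysines, and Plod2 (-0.22, adjusted p = 0.00494), a lysyl hydroxylase of the telopeptides. In SOL P3h4 fell (-0.20, adjusted p = 0.00179) and P3h2, a prolyl 3-hydroxylase, rose (0.27, adjusted p = 0.0288, 0.0532 without the Ctrl mouse of ZT0 replicate A).

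Among 13 genes of trimming and crosslinking, the lysyl oxidase family members Loxl4 (0.21, adjusted p = 0.000496) and Loxl1 (0.19, adjusted p = 0.00161) rose in TA of mKO mice. Pcolce2, an enhancer of procollagen trimming (-0.24, adjusted p = 0.0019), and Bmp1, the trimming protease (-0.11, adjusted p = 0.0214), fell there, and 0 of 13 passed in SOL in limma (3 at an unadjusted p under 0.05). Of 15 turnover genes Timp2 and Timp3, inhibitors of matrix metalloproteinases, fell in TA (-0.21 and -0.14), and Timp4, another such inhibitor, rose in SOL (0.26, adjusted p = 0.0406, but 0.0551 with each array centred on its median and 0.0541 with a trended and robust prior). Of 9 collagen receptors, the receptor kinases Ddr1 and Ddr2 fell in TA (-0.15 and -0.16) and the integrin chains Itga2 and Itgb1 in SOL (-0.18 and -0.11), the call of Itgb1 ending without the Ctrl mouse of ZT0 replicate A (adjusted p = 0.0525). Of 15 genes of TGF-beta signalling, a pathway known to induce fibrillar collagen, 1 rose and 5 fell in TA, and 1 rose and 3 fell in SOL. The ligand Tgfb3 rose in both muscles (0.59 in TA, adjusted p = 1.60e-11, and 0.12 in SOL, adjusted p = 0.0458), and the receptor Tgfbr2 fell in both (-0.29 in TA, adjusted p = 3.85e-08, and -0.25 in SOL, adjusted p = 6.32e-05). Within the 13 BM2 and BM2* mice none of the genotype calls of partner genes given with values passed except Tgfb3 and Tgfbr2 in TA. These series hold both genotypes only at ZT8 and ZT12, so only mice of those times inform that genotype difference. Tgfb3 in SOL also missed with each array centred on its median (adjusted p = 0.11). Within BM3 mice the calls of P3h2, P3h4, Itga2, Timp4 and Tgfb3 in SOL and of Ddr1, Loxl1, Pcolce2, Bmp1 and Timp3 in TA ended (adjusted p = 0.0888 to 0.455), and with the identification series as a block those of P3h2, Itgb1, Fmod and Tgfb3 in SOL and of Ddr2, Bmp1 and Timp3 in TA (adjusted p = 0.0541 to 0.0926). Some cell type markers moved too, where 14.8% of all genes passed in TA and 7.1% in SOL. In TA 3 of 6 fibroblast markers fell (Gsn, Dpt and Pi16), with a median of -0.15 over the list, and 1 of 7 tendon markers (Kera). In SOL 1 tendon marker rose (Scx) and 1 fell (Fmod), and no fibroblast marker passed. Of 5 satellite cell markers 2 rose in TA and 1 in SOL, and of 7 endothelial markers 0 passed in TA and 1 rose in SOL. In TA 1 of 6 adipocyte markers and 1 of 7 smooth muscle and pericyte markers fell, and in SOL 1 of 4 Schwann cell markers fell. The mean level of the fibroblast list ran from 8.85 to 9.30 in TA mKO against 9.001 to 9.41 in TA Ctrl, and from 9.23 to 9.69 in SOL mKO against 9.27 to 9.97 in SOL Ctrl. The part of these markers in the genotype differences was not tested.

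The same partner lists were also compared between the muscles of Ctrl mice, where 42.9% of all genes passed. The share of a list that passed ran from 38.5% (trimming and crosslinking) to 92.9% (fibril partners). Of 14 fibril partners 12 were lower and 1 higher in TA, and the counts were also 12 and 1 in mKO. In Ctrl the lower ones included Aspn (-1.42), encoding asporin, and Comp (-1.27), a tendon and cartilage glycoprotein that is also a member of the tendon marker list, and the higher one was Tnc (0.21), encoding tenascin-C. Of 17 folding genes 9 were lower and 3 higher in TA of Ctrl mice, with P3h2 at -3.61, Plod2 at -0.60 and the prolyl 4-hydroxylase chain P4ha1 at 0.37. Of 10 basement membrane partners 2 were higher and 3 lower in TA of Ctrl mice, with the laminin chains Lama5 at 0.43 and Lama2 at -0.28. Of 15 TGF-beta genes 4 were higher and 8 lower, with Smad3 at 0.63 and Ccn2, a matricellular target of the pathway, at -1.73.

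Time of day was tested with a 24 h cosine and sine in each muscle and genotype. A single member was rhythmic, in SOL of both genotypes: Col5a3, a fibrillar chain of type V. It made 1 of 44 in SOL mKO, where 5.68% of all genes passed, and 1 of 44 in SOL Ctrl, where 6.05% passed. In TA 0 of 44 passed in limma in mKO (1.76% of all genes) and 0 of 44 in Ctrl (2.7%), with 2 members at an unadjusted p under 0.05 in each. Of 20239 genes, 2353 in TA mKO and 2384 in TA Ctrl had such a p. The difference in rhythm between genotypes passed for 0 of 44 members in TA (0.104% of all genes) and 0 of 44 in SOL (0.0395%), none of them at an unadjusted p under 0.05.

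The 250 bases before the annotated start of Col5a3 (RefSeq, GRCm38.p6, minus strand, chr9:20815068-20815317) are shown because it is the rhythmic member. Capitals mark a CCAAT box, read 5′ to 3′ on the gene's strand.
Col5a3: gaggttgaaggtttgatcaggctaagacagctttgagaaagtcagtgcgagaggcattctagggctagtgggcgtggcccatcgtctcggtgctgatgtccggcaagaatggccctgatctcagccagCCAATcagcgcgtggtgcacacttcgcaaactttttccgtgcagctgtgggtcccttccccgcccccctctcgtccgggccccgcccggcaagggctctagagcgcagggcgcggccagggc
The E-box CACGTG, the element that BMAL1 with CLOCK binds, was searched in the same window on both strands for the 35 members with a promoter in RefSeq (38 windows). It was in 0 of 38 windows, against 6.02% of 32851 windows of all genes, and CCAAT, searched the same way, was in 13 of 38, against 33.8% of all. A missing match says only that these letters are not in this window.

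In SOL mKO, Col5a3 was highest at ZT4, where the mice had 7.34, 7.30 and 7.37, and lowest at ZT12, where they had 7.05, 7.09 and 6.96. In SOL Ctrl it was also highest at ZT4, with 7.25, 7.29 and 7.26, and lowest at ZT12, with 7.04, 7.09 and 6.77. In both genotypes all mice of ZT4 lay above all mice of ZT12. The means from ZT0 to ZT20, in steps of 4 h, were 7.32, 7.34, 7.07, 7.03, 7.10 and 7.18 in SOL mKO, and 7.25, 7.27, 7.09, 6.97, 7.02 and 7.10 in SOL Ctrl. The amplitude, from mean to peak, was 0.16 ± 0.03 in SOL mKO (limma adjusted p = 0.00748) with a peak at ZT0.92, and 0.15 ± 0.03 in SOL Ctrl (adjusted p = 0.00918) with a peak at ZT1.70. In TA it was 0.09 ± 0.04 in mKO (adjusted p = 0.558) and 0.11 ± 0.04 in Ctrl (adjusted p = 0.378). Whether the rhythm of Col5a3 differs between the muscles was not tested. Its call depends on the method: the moderated F test over the 6 times gave adjusted p = 0.0858 in SOL mKO and 0.127 in SOL Ctrl. With the identification series as a block, chosen after seeing the data because series and time overlap, the adjusted p was 0.0293 in SOL mKO and 0.0779 in SOL Ctrl.

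**Figure D4:**
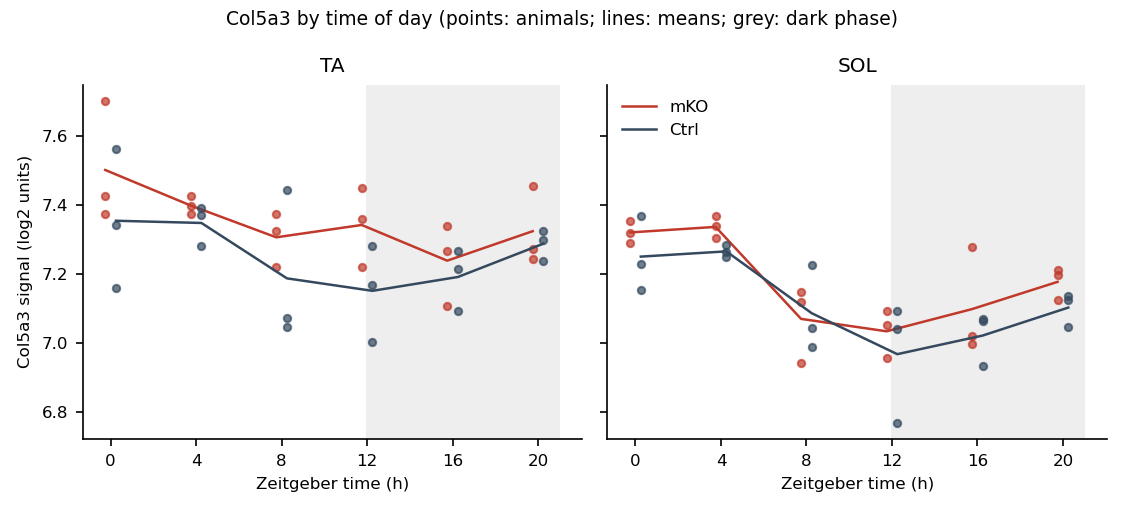
Col5a3 signal (log2 units) by Zeitgeber time, with TA on the left and SOL on the right. Points are mice, lines join the means of 3 mice, red is mKO, blue is Ctrl and grey marks the dark phase. In SOL both genotypes have their highest mean at ZT4 (7.34 in mKO and 7.27 in Ctrl) and their lowest at ZT12 (7.03 and 6.97).

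The members also differed in how much they varied between mice of the same group. The SD of deviations from the group means, over 36 mice, had a median of 0.15 in TA and 0.15 in SOL for the members, against 0.15 and 0.14 for all genes. It was largest for Col12a1 in TA (0.34, against 0.31 in SOL) and for Col1a1 in SOL (0.33 in TA and 0.36 in SOL), and was smallest in SOL for Col4a3 (0.09). The deviation of 1 muscle of a mouse could be set beside that of its other muscle. Across 36 mice the correlation of TA with SOL was r = 0.708 for Col3a1, 0.700 for Col1a1, 0.631 for Col4a1, 0.615 for Col1a2 and 0.512 for Col15a1. These 5 were the only members above 0.5, 22 of 44 were below 0, and the median was 0.00 for the members and 0.03 for all genes. Each point is 1 mouse, and mice of a group share a collection time. The groups of ZT8 and ZT12 and the Ctrl group of ZT16 mix identification series. Removal of group means therefore leaves any difference between series in these values, which are a description.

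**Figure D5:**
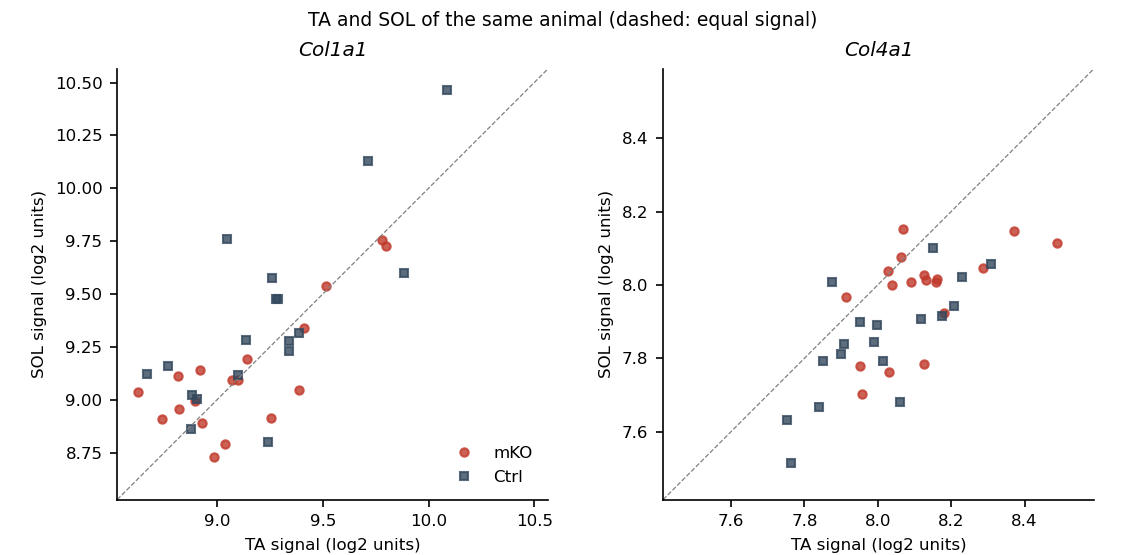
Signal of Col1a1 (left) and Col4a1 (right) in TA (horizontal axis) and SOL (vertical axis) of the same mouse, in log2 units. Each point is 1 of 36 mice, circles are mKO, squares are Ctrl, and the dashed line marks equal signal. Mice with a high signal in 1 muscle tended to have a high signal in the other, with r = 0.700 for Col1a1 and 0.631 for Col4a1 after removal of group means.

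Within a muscle, the deviations of Col1a1 went with those of some members and not with those of most. Across 36 arrays they correlated with those of Col1a2, its partner chain, at r = 0.959 in TA and 0.955 in SOL. For Col3a1 r was 0.894 in TA and 0.816 in SOL, and for Col12a1 0.75 in TA and 0.84 in SOL. Of the 43 other members, 11 in TA and 12 in SOL had r above 0.5 with Col1a1, and the median was 0.108 (-0.300 to 0.959) in TA and -0.013 (-0.345 to 0.955) in SOL. Sparc, which encodes a collagen-binding glycoprotein and was picked after its values were seen, had 0.936 in TA and 0.926 in SOL. The 7 tendon markers had a median r of 0.595 in TA and 0.748 in SOL with Col1a1, the 6 fibroblast markers 0.402 and 0.321, and their part in this spread was not tested. Col1a1 exceeded 10 log2 units in 3 of 72 arrays, all of Ctrl mice: both muscles of the ZT12 replicate C mouse (10.1 in TA and 10.5 in SOL) and SOL of the ZT16 replicate C mouse (10.1). Both of these mice also belong to the BM2* series. The part of the series in these values and in the correlations with Col1a1 was not tested.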

How the data were processed

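RNA of TA and SOL from 36 mice was hybridised to 72 arrays. The deposited values are log2 signals, normalised by the authors (RMA, in a version that the submitters' processing notes leave out). Of 21225 probe sets, the platform annotation gave 1 symbol to 20239, several to 0 and none to 986. All 20239 matched the RefSeq gene table (GRCm38.p6) by Entrez number. Sequences were read from RefSeq promoter tables of the same assembly.

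All named genes were fitted with limma 3.58.1 (lmFit, eBayes) in R 4.3.3 and adjusted by Benjamini-Hochberg over all of them, with a threshold of 0.05. Genotype effects were the mean over 6 times of mKO minus Ctrl within a muscle. Muscle differences and the interaction used TA minus SOL of the same animal, as the labels pair them. The deviations of such pairs correlated with a median r of 0.046 (-0.197 to 0.352, over 0.1 in 11 of 36). Rhythm was the joint test of a 24 h cosine and sine. Separate animals are replicates, and p-values measure the spread between them. The fits were tested on simulated data.

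Collagens called in any test, the chains Col1a1, Col1a2, Col3a1, Col4a1 and Col4a2, and up to 2 partner genes per list and direction with the smallest p were named, and others only by count or where a count needed them. Members, lists and tests were chosen with earlier results of these data known. Some genes of the lists are not reported here. The number of arrays limits the precision.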

Additional observations from a re-analysis of the deposited data

Results flagged for a closer look

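No collagen gene met a rule for a closer look. For 2 partner genes the genotype effect differed between the muscles, by the interaction of muscle and genotype in limma. For Loxl4, a lysyl oxidase family member, mKO minus Ctrl was 0.21 in TA and -0.04 in SOL, a difference of 0.25 ± 0.06 (adjusted p = 0.0191). It was 0.28 with an adjusted p of 0.217 within BM3 mice and 0.08 within BM2 and BM2* mice. For Tgfb3, a TGF-beta ligand, mKO minus Ctrl was 0.59 in TA and 0.12 in SOL, a difference of 0.47 ± 0.06 (adjusted p = 6.12e-06), and 0.52 with an adjusted p of 0.52 within BM2 and BM2* mice. Samples that stand apart were looked for only in groups of 4 or more, so not in these groups of 3 mice.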

How the results depend on the processing

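Called collagens kept their direction under every alternative that gave them a value: 322 of 379 combinations of gene and alternative kept the call, 57 lost it and 0 reversed. The number of collagens called in the TA genotype test, 1 as reported, was 12 with array weights, 5 above the median level, 4 with the replicate block, 3 with the identification series as a block, 2 within BM3, 0 within BM2 and BM2*, and 1 to 6 with single mice left out. It was 6 without the Ctrl mouse of ZT0 replicate C, 5 without Ctrl ZT8 C, 3 without mKO ZT12 C, and 2 without mKO ZT0 B, mKO ZT4 B, mKO ZT8 A, mKO ZT16 A or Ctrl ZT12 C. Of all genes, 14.8% passed as reported, 26.6% with array weights, 30.5% of those above the median level and 15.6% with the replicate block. With the identification series as a block 12.9% passed, within BM3 9.3% and within BM2 and BM2* 1.86%. In SOL the count, 0 as reported, was 1 above the median level, 1 with the series block, and 0 to 1 with single mice left out (Col4a1 without mKO ZT8 B or mKO ZT12 A, Col12a1 without Ctrl ZT12 B). In that muscle 15.7% of genes above the median level passed, and 6.55% of all genes with the series block. With single mice left out, 1316 to 1479 of 20239 genes passed there. The muscle difference gave 7 collagens in mKO within BM2 and BM2*, where 25.9% of all genes passed. In Ctrl it gave 9 within BM2 and BM2* (21.5% of all genes) and 10 within BM3 (34.4%). With single mice left out the ranges were 16 to 25 in mKO and 14 to 20 in Ctrl. Of 20239 genes, 9180 to 9958 then passed in mKO and 8351 to 8789 in Ctrl. Among 36 such refits, calls in mKO were lost for Col9a2 in 26, Col28a1 in 10, Col13a1 in 9, Col27a1 in 6, Col6a1 in 5 and Col4a3 in 1, and in Ctrl for Col4a5 in 11, Col24a1 in 9, Col9a1 in 6, Col1a2 in 5 and Col4a3 in 2. Rhythmic collagens in SOL mKO were 2 with array weights, where 8.39% of all genes passed, and 0 with the F test over 6 times (2.79%). In SOL Ctrl they were 0 with that F test (3.52% of all genes) and 0 with the added series block (4.33%). With single mice left out they were 1 to 2 (Col8a2 was added without Ctrl ZT0 C), where 1023 to 1270 of 20239 genes passed. Col1a1 reversed to 0.037 in SOL and 0.27 in TA, and Col1a2 to 0.019 in SOL and 0.16 in TA, within BM2 and BM2*, none of them called. The cause of these changes was not tested, except that the tests within a series use fewer mice. In BM2 and BM2*, mKO and Ctrl mice were both present only at ZT8 and ZT12.

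Same-letter replicates of mKO and Ctrl had a median r of 0.153 (-0.280 to 0.322, over 0.1 in 21 of 36), and 18 of 36 correlated best with their own letter among 3. The labels give the letters no meaning and different mice carry the same letter, so the letters were not taken as pairs. Whether mice of the same letter share a deviation was not tested. At ZT8, and for letters A and C at ZT12, the letters also follow the identification series in both genotypes. The muscles of 1 mouse, paired by the labels, had a lower median r of 0.046 (over 0.1 in 11 of 36). With the replicate block Col13a1, Col4a1 and Col8a1 were called in TA beside Col4a2. Over all genes the TA genotype count, 3000 as reported, was 5388 with array weights, 1882 within BM3 and 377 within BM2 and BM2*. The SOL count, 1436 as reported, was 579 within BM3 and 167 within BM2 and BM2*. The interaction count, 549 as reported, was 1201 with array weights, 208 within BM3 and 17 within BM2 and BM2*. Within BM2 and BM2* the muscle difference gave 5251 genes in mKO (9755 as reported) and 4356 in Ctrl (8690). The F test gave 565 rhythmic genes in SOL mKO, 713 in SOL Ctrl, 214 in TA mKO and 335 in TA Ctrl, and array weights 563 in TA mKO. Genotype differences in rhythm in SOL, 8 as reported, were 13 with array weights, 14 above the median level and 4 with the F test. Named partner genes kept their call in 394 of 458 combinations and lost it in 64.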
